A study of Homo sapiens with 6 samples.

Results

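The genes followed here are 40 gene symbols of the glutathione, thioredoxin and NRF2 pathways, chosen by name, out of 56638 gene rows in RNA-sequencing count tables of cells labelled SW480, a line from a human colorectal adenocarcinoma. All 40 symbols were found in the tables, and 39 had enough reads to be tested. The TGFB1 group held 3 libraries of cells given the cytokine TGF-β1 repeatedly at 10 ng/ml. The control group held 3 libraries of cells of the same line left without it. Both groups were labelled passage 16 to 19, grew in medium with serum and gave total RNA. How long the cells were exposed in all is not stated by the labels, and the results are those of a single cell line. The labels also do not tell whether separate cultures stood behind the 3 libraries of a group, so p-values here measure only the spread between libraries, and that spread may be technical. TGF-β1 acts through receptor kinases on SMAD transcription factors.

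NRF2, encoded by NFE2L2, is a transcription factor that switches on genes for detoxification and antioxidant defence. In unstressed cells KEAP1 binds it and hands it to a ubiquitin ligase, and oxidants or electrophiles that modify KEAP1 cysteines let NRF2 accumulate and pair with small MAF proteins at antioxidant response elements. Its targets feed a pair of thiol systems: glutathione, made from cystine and recycled by glutathione reductase, and thioredoxin, recycled by thioredoxin reductase. Both pass electrons to peroxidases that remove hydrogen peroxide and lipid peroxides, and in colorectal and other carcinomas the pathway is known for its part in tolerance of drugs.

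Libraries held 13012898 to 16005222 counts in genes. TGFBI, a secreted matrix protein induced by this cytokine, was at 677 ± 16.4 CPM in TGFB1 and 14.6 ± 2.05 CPM in control libraries (CPM, the usual depth-scaled count, here with TMM-scaled library totals, mean ± SD, n = 3 each). Of 9 colorectal epithelial markers KRT8 (1678 ± 20.4 CPM in TGFB1 and 1711 ± 1.33 CPM in control libraries) and KRT18 (124.9 ± 2.59 CPM in TGFB1 and 183.5 ± 7.36 CPM in control libraries) were the most abundant. Their summed level was 1782 to 1824 CPM in TGFB1 and 1897 to 1911 CPM in control libraries, and of the 4 tested 3 fell, KRT18, EPCAM (4.06 ± 1.00 CPM in TGFB1 and 6.94 ± 0.543 CPM in control libraries) and CDH1 (0.271 ± 0.176 CPM in TGFB1 and 1.09 ± 0.0707 CPM in control libraries), while KRT8 did not pass. CDX2, the intestinal transcription factor, was at 0 in all libraries, and KRT19, KRT20, VIL1 and LGALS4 were too low to test, so the intestinal part of the label is not borne by these markers. The summed level of 10 fibroblast markers was 120.8 to 136.7 CPM in TGFB1 and 91.7 to 95.4 CPM in control libraries, most of it COL1A1 (99.1 to 109.3 CPM in TGFB1 and 78.3 to 83.2 CPM in control libraries). Of these 10 markers 5 could be tested and all 5 rose, while COL1A2 and COL3A1 were at or near 0. Among 8 immune markers (1.81 to 3.30 CPM summed in TGFB1 and 2.01 to 2.57 CPM in control libraries) PTPRC and MS4A1 were at 0, and among 6 endothelial markers (0.856 to 1.22 CPM summed in TGFB1 and 2.72 to 3.47 CPM in control libraries) PECAM1 and KDR were at 0. The part of these marker levels in the results was not tested, and in bulk libraries fewer cells of a type and less RNA per cell cannot be told apart.

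Most of the pathway was lower in cells given TGF-β1. Of the 39 tested members 25 fell, 6 rose and 8 did not pass edgeR's quasi-likelihood test at a Benjamini-Hochberg adjusted p of 0.05 over all 14897 genes tested. Over all genes tested 47.3% were called, with 23.9% lower and 23.4% higher, and among genes of at least 10 CPM, as 33 of the 40 members were, 29.2% fell and 24.9% rose. The median log2 fold change, TGFB1 minus control, was −0.33 over the 39 members and 0.00033 over all genes tested. At least a 2-fold fall was called for 8 members (NFE2L2, NQO1, NQO2, OSGIN1, GCLM, GSR, GLRX and TXNRD1), against 4.16% of all genes tested, and a 2-fold rise for 0 members, against 5.34%. In 26 tested members the 3 TGFB1 libraries all lay below the 3 control libraries and in 5 all above, against 27.3% and 27.0% of all genes tested. The members that rose were NFE2L1, BACH1, GPX1, SOD2, MSRA and MSRB2, each by less than 2-fold.

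**Figure D1:**
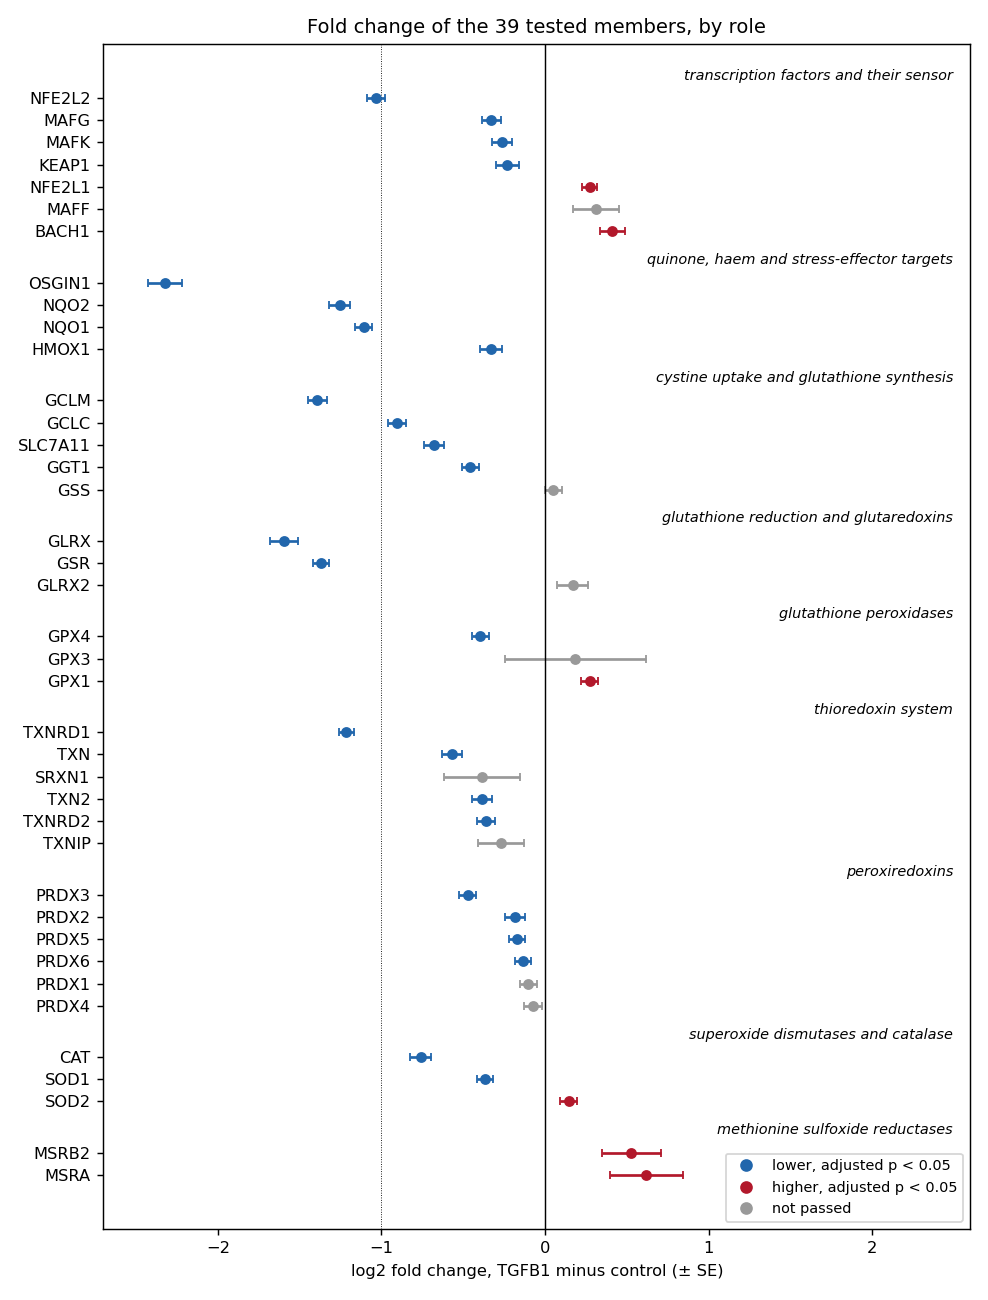
Log2 fold change (TGFB1 minus control, x axis) of the 39 tested members, grouped by role, with bars for the standard error and colour for the edgeR call. The falls reach −2.32 in OSGIN1, while the rises stay at or below 0.62, the value of MSRA.

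Among the transcription factors and their sensor, the NRF2 gene itself was halved. NFE2L2 was at 67.8, 68.0 and 73.1 CPM in TGFB1 libraries 1, 2 and 3, against 143, 145.7 and 138.3 CPM in control libraries 1, 2 and 3. The groups were well apart, with each TGFB1 library near the others, and the fall was 2.05-fold (log2 fold change −1.03 ± 0.054 SE, edgeR adjusted p = 1.47e-15). KEAP1, the adaptor that marks NRF2 for degradation, was at 41.5, 42.5 and 42.1 CPM in TGFB1 libraries and 44.7, 54.3 and 48.7 CPM in control libraries, 1.17-fold lower (edgeR adjusted p = 0.00802). That call ended without control 2, the highest of the control libraries (edgeR adjusted p = 0.0762). GENCODE 29 places 20.9% of the NFE2L2 exon bases under exons of other genes, and reads there may be missing from its counts.

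BACH1, the repressor that competes with NRF2 for the same elements, moved the other way. Its levels were 35.0, 39.6 and 34.5 CPM in TGFB1 libraries, against 29.6, 25.7 and 27.0 CPM in control libraries, a 1.33-fold rise (log2 fold change 0.41 ± 0.077 SE, edgeR adjusted p = 6.05e-05). NFE2L1, the NRF2 relative that drives proteasome genes, rose 1.21-fold, to 241.8, 241.8 and 227.6 CPM in TGFB1 libraries, against 197.8, 198.0 and 193.5 CPM in control libraries (edgeR adjusted p = 2.08e-05). Both NRF genes are members of the cap'n'collar family of basic leucine zipper factors, and here they changed in opposite directions.

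The 3 small MAF genes, whose products are the DNA-binding partners of both NRF2 and BACH1, were not uniform. MAFG fell 1.25-fold (74.9 ± 3.07 CPM in TGFB1 and 94.1 ± 2.22 CPM in control libraries, edgeR adjusted p = 1.69e-05) and MAFK fell 1.20-fold (84.4 ± 7.64 CPM in TGFB1 and 101.4 ± 0.881 CPM in control libraries, edgeR adjusted p = 0.000620). MAFF was far less abundant, at 8.60 ± 1.25 CPM in TGFB1 and 6.94 ± 1.00 CPM in control libraries, and did not pass (edgeR adjusted p = 0.0680). It was called higher when libraries were scaled by their size alone (edgeR adjusted p = 0.0314), with upper-quartile factors (0.0488), without TGFB1 3 (0.0173) and without control 2 (0.0233). MAFK shares 18.2% of its exon bases with other genes in GENCODE 29.

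Ratios of counts taken within a library do not depend on how libraries are scaled. NFE2L2 counts per KEAP1 count were 1.63, 1.60 and 1.74 in TGFB1 libraries and 3.20, 2.68 and 2.84 in control libraries, a log2 difference of −0.81 ± 0.082 SE. BACH1 counts per NFE2L2 count were 0.517, 0.582 and 0.472 in TGFB1 libraries and 0.207, 0.176 and 0.195 in control libraries, a log2 difference of 1.44 ± 0.11 SE. The repressor thus had a larger share relative to the activator in every TGFB1 library than in any control library, at the level of transcripts. In all 6 ratios, which were chosen with earlier results of these data known, the groups did not overlap. The share of other gene pairs of which that holds was not computed, and single genes lay all below in 27.3% and all above in 27.0% of cases. The two-sided exact permutation test over libraries gave p = 0.1 for each, the smallest that 3 against 3 libraries allow, and 0.1 after Benjamini-Hochberg adjustment over the 6.

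**Figure D2:**
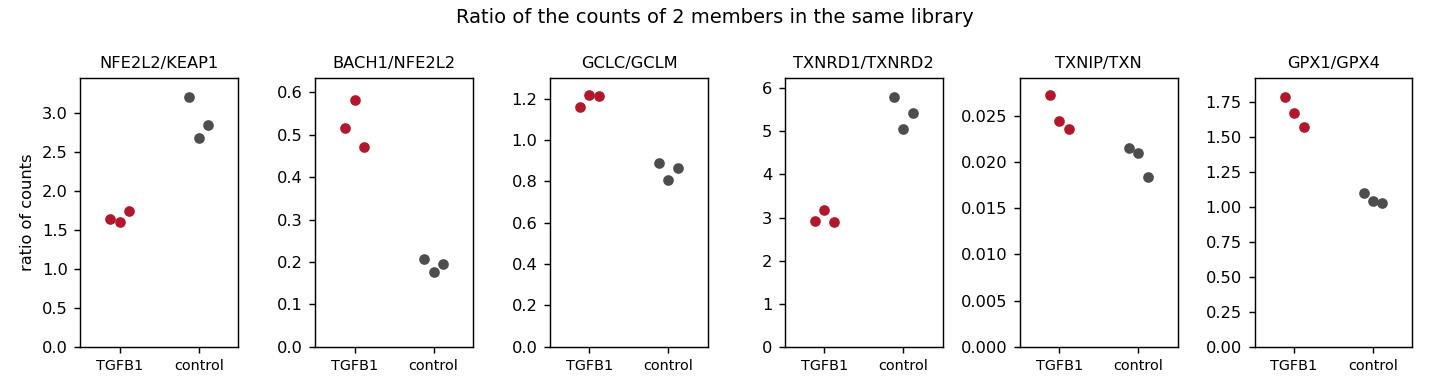
Ratio of the counts of 2 members in the same library (y axis, from 0, a scale of its own in each panel) for the 6 fixed pairs, with 1 point per library. TGFB1 libraries lie below control libraries for NFE2L2/KEAP1 and TXNRD1/TXNRD2, and above them for BACH1/NFE2L2, GCLC/GCLM, TXNIP/TXN and GPX1/GPX4.

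Promoter windows of 4 of the 8 members that hold an antioxidant response element or AP-1 match are shown here, those of the sensor KEAP1 and of 3 members lowered more than 2-fold, since NRF2 with MAF, and BACH1 with MAF, bind the first kind of element and AP-1 factors the second. RefSeq windows (GRCh38.p14, 250 bases before to 50 after a start site) were matched by symbol for 30 of the 40 members, in 49 windows, as some genes have several starts. The core searched was TGACNNNGC on both strands (N, any base), and a match on the other strand is capitalised as its reverse complement. Of the 30 members 6 held it (20%), namely GCLM, TXNRD1, GPX2, KEAP1, GGT1 and MAFF, against 16.1% of all 27305 genes in the table. By window the shares were 14.3% of 49 and 13.3% of 35116, so this core was about as common in member windows as in all windows. The AP-1 motif TGANTCA, which can overlap the core by its first letters, was found in 2 members (6.67%), OSGIN1 and BACH1, against 9.37% of all genes. A match is a description of letters in these windows, and elements farther from the start site were not searched. The stretches from 140 bases before the start to the last base before it follow, 5′ to 3′ on the strand of the gene, with the matches in capitals.
GCLM (chr1:93909431-93909570, minus strand): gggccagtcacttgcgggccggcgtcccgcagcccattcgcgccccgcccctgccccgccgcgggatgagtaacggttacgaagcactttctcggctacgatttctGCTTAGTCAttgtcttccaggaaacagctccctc
TXNRD1, upstream start (chr12:104215639-104215778, plus strand): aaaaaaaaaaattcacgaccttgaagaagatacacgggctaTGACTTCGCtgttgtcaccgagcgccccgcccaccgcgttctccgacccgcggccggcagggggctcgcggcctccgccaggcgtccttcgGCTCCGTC
TXNRD1, downstream start (chr12:104286892-104287031, plus strand): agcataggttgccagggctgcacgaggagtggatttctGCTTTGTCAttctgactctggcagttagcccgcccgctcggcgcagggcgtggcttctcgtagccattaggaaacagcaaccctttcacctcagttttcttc
KEAP1, second start of the table (chr19:10502772-10502911, minus strand): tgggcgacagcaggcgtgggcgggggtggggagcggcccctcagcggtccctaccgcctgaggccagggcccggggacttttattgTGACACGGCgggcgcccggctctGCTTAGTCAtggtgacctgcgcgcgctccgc
OSGIN1 (chr16:83953100-83953239, plus strand, AP-1 match): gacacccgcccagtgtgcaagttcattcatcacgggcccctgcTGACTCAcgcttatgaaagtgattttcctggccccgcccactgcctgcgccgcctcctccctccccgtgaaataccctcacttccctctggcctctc
GCLM and KEAP1 thus carry the same 9 letters on the opposite strand, TGACTAAGC, at bases −34 to −26 and −31 to −23 from their starts, and the last match in the upstream TXNRD1 window runs on to base 1 of the gene. The windows of GPX2, GGT1, MAFF and BACH1 are not printed. Of the 6 members with the core, GCLM and TXNRD1 fell more than 2-fold, GGT1 (match at bases −29 to −21) 1.37-fold and KEAP1 1.17-fold, MAFF (−122 to −114) did not pass, and GPX2 (−122 to −114) was not tested. Of the 2 with the AP-1 motif OSGIN1 fell and BACH1 (−48 to −42) rose.

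The quinone, haem and stress-effector genes all fell, 4 of 4, against 23.9% of all genes tested. OSGIN1, an oxidative-stress induced growth inhibitor, was at 6.18, 6.42 and 6.41 CPM in TGFB1 libraries and 29.2, 34.6 and 31.4 CPM in control libraries. This 5.00-fold fall (log2 fold change −2.32 ± 0.10 SE, edgeR adjusted p = 2.25e-17) was the largest of the 39 tested members. NQO1, the quinone reductase used as a standard readout of NRF2 activity, was at 124.3, 119.1 and 130.8 CPM in TGFB1 libraries, against 255.9, 290.3 and 260.2 CPM in control libraries, 2.16-fold lower (edgeR adjusted p = 2.94e-16). NQO2, a paralogue that uses another hydride donor, fell 2.39-fold, to 30.7 ± 1.15 CPM in TGFB1 libraries against 73.4 ± 2.87 CPM in control libraries (edgeR adjusted p = 1.08e-15). HMOX1, which degrades haem and is a classical BACH1-repressed gene, fell 1.26-fold, at 36.5, 36.1 and 37.6 CPM in TGFB1 libraries and 45.7, 44.8 and 47.7 CPM in control libraries (edgeR adjusted p = 0.000123). None of the 4 overlapped between groups, while 27.3% of all genes tested lay all below.

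**Figure D3:**
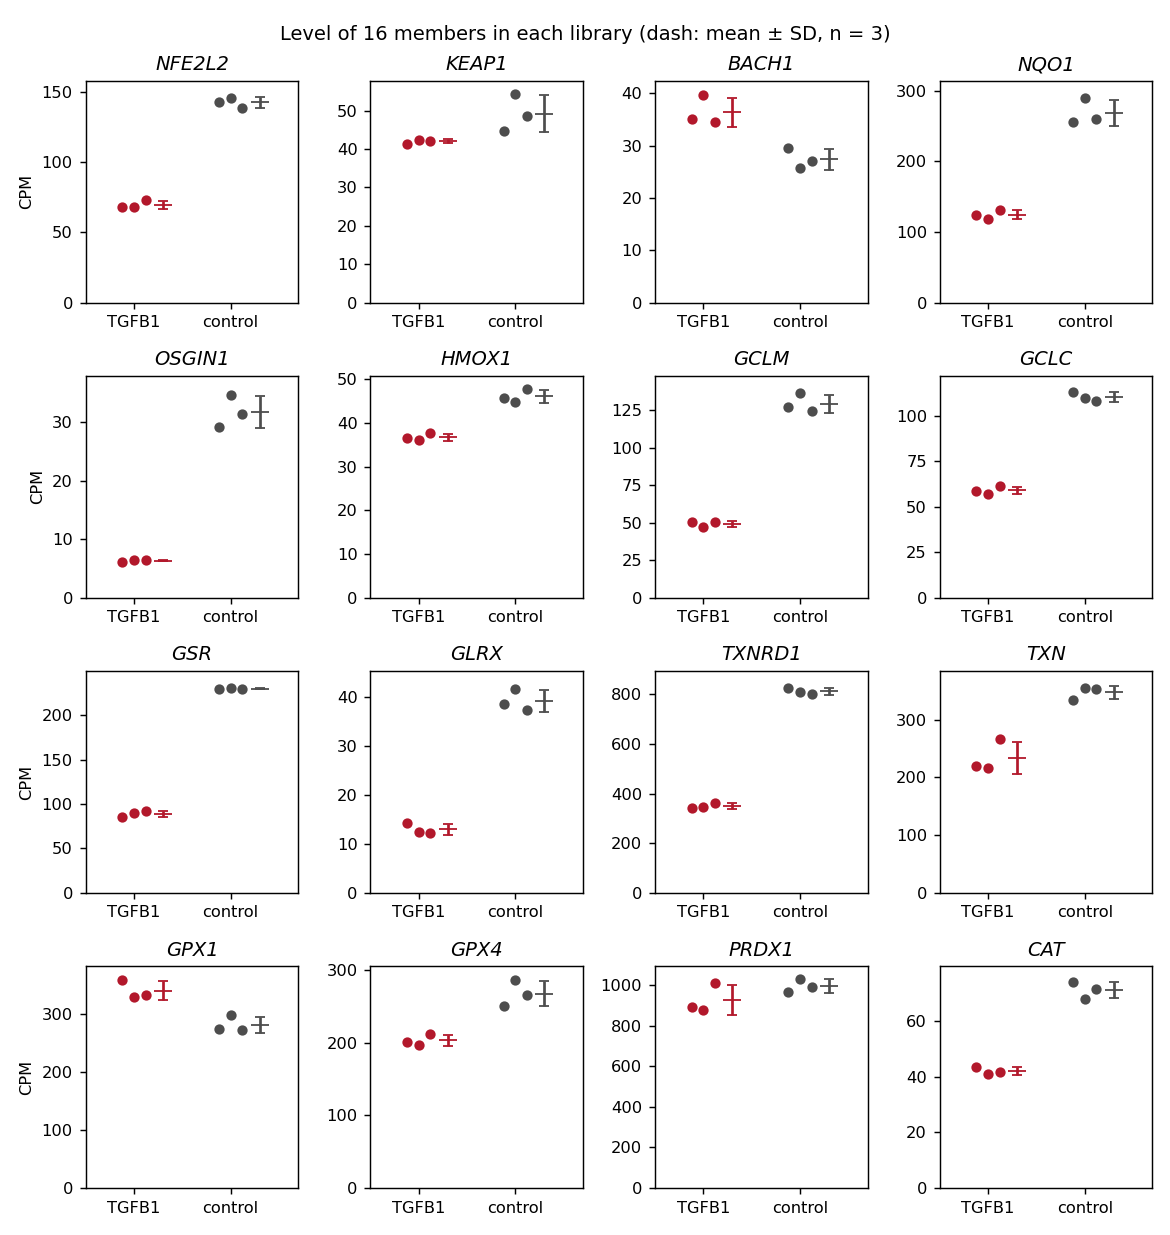
Level of 16 members in each library (CPM, y axis from 0, a scale of its own in each panel), with 1 point per library and the mean ± SD of 3 beside the points. TGFB1 libraries lie below control libraries for 13 of the 16 genes, narrowly for KEAP1, and above them for BACH1 and GPX1, and the groups overlap for PRDX1. The 16 were picked by hand, so their split does not stand for the set. Of the 39 tested members 26 lay all below and 5 all above, against 27.3% and 27.0% of all genes tested.

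Transcripts for the first, rate-limiting step of glutathione synthesis fell, and the transcript for its second step did not pass. GCLC and GCLM encode the catalytic and modifier subunits of glutamate-cysteine ligase. GCLM was at 50.6, 47.1 and 50.6 CPM in TGFB1 libraries, against 127.5, 136.4 and 124.7 CPM in control libraries, a 2.62-fold fall (log2 fold change −1.39 ± 0.058 SE, edgeR adjusted p = 9.98e-18). GCLC was at 58.5, 57.3 and 61.3 CPM in TGFB1 libraries and 113.2, 109.7 and 108 CPM in control libraries, 1.87-fold lower (edgeR adjusted p = 7.52e-14). The modifier subunit fell further: GCLC counts per GCLM count were 1.16, 1.22 and 1.21 in TGFB1 libraries and 0.888, 0.805 and 0.866 in control libraries. GSS, the glutathione synthetase that adds glycine in the second step, did not pass, at 120.5, 117.3 and 126 CPM in TGFB1 libraries and 117.8, 116.1 and 117.3 CPM in control libraries (log2 fold change 0.05 ± 0.051 SE, edgeR adjusted p = 0.442).

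Supply genes on either side of synthesis were also lower. SLC7A11, the cystine importer of system xc-, was at 76.9, 76.5 and 68.5 CPM in TGFB1 libraries, against 127.1, 120.0 and 108.5 CPM in control libraries, 1.60-fold lower (edgeR adjusted p = 2.82e-10). GGT1, the γ-glutamyl transferase that breaks down extracellular glutathione, fell 1.37-fold (101.9 ± 4.15 CPM in TGFB1 and 140.0 ± 3.92 CPM in control libraries, edgeR adjusted p = 1.97e-08). GGT1 belongs to a family with near-identical copies, so reads that align to several of them may be missing from its count and its level is uncertain. SLC7A11 has an antisense gene over 8.97% of its exon bases, and whether the counting used strand is not known from the labels.

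Transcripts for the recycling of glutathione were among the most lowered. GSR, glutathione reductase, was at 85.3, 90.0 and 92.1 CPM in TGFB1 libraries and 229.5, 230.5 and 230.1 CPM in control libraries, with almost no spread among the control libraries. It was 2.58-fold lower (log2 fold change −1.37 ± 0.050 SE, edgeR adjusted p = 3.26e-19), the lowest adjusted p of the members. GLRX, the cytosolic glutaredoxin that removes glutathione from proteins, fell 3.02-fold, to 14.3, 12.4 and 12.2 CPM in TGFB1 libraries against 38.5, 41.6 and 37.3 CPM in control libraries (edgeR adjusted p = 2.25e-15). GLRX2, the mitochondrial and nuclear glutaredoxin, did not pass, at 20.5 ± 2.07 CPM in TGFB1 and 18.2 ± 1.58 CPM in control libraries (edgeR adjusted p = 0.144).

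The glutathione peroxidases, selenoproteins that spend glutathione on peroxides, split. GPX1, the abundant cytosolic form, rose 1.21-fold, at 360.1, 329.5 and 333 CPM in TGFB1 libraries and 275.3, 298.1 and 273.1 CPM in control libraries (edgeR adjusted p = 4.28e-05). GPX4, which reduces lipid peroxides in membranes and guards against ferroptosis, fell 1.32-fold, at 201.6, 197.2 and 211.9 CPM in TGFB1 libraries and 250.7, 286.1 and 266.1 CPM in control libraries (edgeR adjusted p = 2.37e-07). GPX1 counts per GPX4 count were 1.79, 1.67 and 1.57 in TGFB1 libraries and 1.10, 1.04 and 1.03 in control libraries, a log2 difference of 0.67 ± 0.061 SE. The pseudogene GPX1P1 stood at 37.9 ± 2.55 CPM in TGFB1 and 29.5 ± 1.88 CPM in control libraries (edgeR adjusted p = 0.000203), so reads of near-identical sequence moved with GPX1 and the level of GPX1 is uncertain.

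Both other glutathione peroxidases were near the floor. GPX2, the gastrointestinal form and a classical NRF2 target, had 4 counts over the 3 TGFB1 libraries and 14 over the 3 control libraries, too few to test. The ratio of TGFB1 to control, scaled by the TMM-scaled library totals, was 0.277, with an exact 95% interval of 0.0664 to 0.883 that covers counting error only. GPX3, the secreted plasma form, was at 0.723 ± 0.445 CPM in TGFB1 and 0.652 ± 0.0905 CPM in control libraries and did not pass (edgeR adjusted p = 0.757). Its direction is not settled, since its log2 fold change of 0.19 became −0.05 in limma-voom and −0.19 without TGFB1 1.

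In the thioredoxin system the cytosolic reductase fell most. TXNRD1 was at 342.7, 345.9 and 361.9 CPM in TGFB1 libraries and 826.7, 811.5 and 799.9 CPM in control libraries, 2.32-fold lower (log2 fold change −1.21 ± 0.046 SE, edgeR adjusted p = 7.32e-19). Its mitochondrial counterpart TXNRD2 fell 1.28-fold, at 117.1, 109.2 and 124.6 CPM in TGFB1 libraries and 142.8, 160.2 and 147.5 CPM in control libraries (edgeR adjusted p = 3.92e-06). TXNRD1 counts per TXNRD2 count were 2.92, 3.17 and 2.90 in TGFB1 libraries and 5.79, 5.07 and 5.42 in control libraries, a log2 difference of −0.85 ± 0.069 SE. Both reductases are selenoproteins, as are the glutathione peroxidases above. Of the 5 selenoprotein members tested 3 fell, 1 rose and 1 did not pass, against 23.9% lower and 23.4% higher over all genes tested.

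Transcripts of their substrates were lower too. TXN fell less than TXNRD1, and TXN2 about as much as TXNRD2, which fell by 0.36 on the log2 scale. TXN, cytosolic thioredoxin, fell 1.48-fold, at 219.5, 217.0 and 266.1 CPM in TGFB1 libraries and 334.8, 354.2 and 352.8 CPM in control libraries (edgeR adjusted p = 6.92e-08), with TGFB1 3 above the other TGFB1 libraries. TXN2, mitochondrial thioredoxin, fell by 0.38 on the log2 scale (63.3 ± 2.62 CPM in TGFB1 and 82.5 ± 6.08 CPM in control libraries, edgeR adjusted p = 8.39e-06). TXNIP, which binds and inhibits thioredoxin, was low, at 5.85 ± 0.486 CPM in TGFB1 and 7.03 ± 0.494 CPM in control libraries, and did not pass (edgeR adjusted p = 0.122). TXNIP counts per TXN count were 0.0272, 0.0245 and 0.0235 in TGFB1 libraries and 0.0215, 0.0210 and 0.0184 in control libraries, a log2 difference of 0.31 ± 0.094 SE.

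SRXN1, the sulfiredoxin that restores overoxidised peroxiredoxins, was at 2.31, 2.14 and 1.58 CPM in TGFB1 libraries and 2.42, 2.36 and 3.14 CPM in control libraries and did not pass (log2 fold change −0.38 ± 0.23 SE, edgeR adjusted p = 0.181). GENCODE 29 gives another gene over 85.0% of its exon bases, the largest share of the 40 members, and reads assigned to both genes may be missing from its count.

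The transcripts of the peroxiredoxins, peroxidases that form the most abundant family of the set, changed little. Their summed level was 1967 ± 112 CPM in TGFB1 and 2178 ± 70.8 CPM in control libraries, and 4 of 6 fell, against 23.9% of all genes tested. PRDX3, the mitochondrial form, fell 1.39-fold, at 117.1, 121.1 and 130.6 CPM in TGFB1 libraries and 174.8, 169 and 168.2 CPM in control libraries (edgeR adjusted p = 7.74e-09). PRDX5, found in mitochondria, peroxisomes and cytosol, fell 1.13-fold (256.9 ± 9.34 CPM in TGFB1 and 289.5 ± 12.1 CPM in control libraries, edgeR adjusted p = 0.00400).

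PRDX2 and PRDX6, cytosolic forms, fell 1.13-fold and 1.10-fold with calls that depend on single libraries and on the scaling. PRDX2 (99.7 ± 5.95 CPM in TGFB1 and 113.1 ± 10.7 CPM in control libraries, edgeR adjusted p = 0.0175) lost its call without TGFB1 2, TGFB1 3, control 2 or control 3 (edgeR adjusted p = 0.0513 to 0.108) and when scaled by library size alone (0.0957). PRDX6 (459.5 ± 19.9 CPM in TGFB1 and 504.2 ± 16.8 CPM in control libraries, edgeR adjusted p = 0.0204) lost its call without TGFB1 1, TGFB1 2, control 2 or control 3 (edgeR adjusted p = 0.0699 to 0.108) when scaled by library size alone (0.168), and with upper-quartile factors (0.0717).

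PRDX1, a cytosolic form and the most highly read member, was at 893.7, 877.2 and 1013 CPM in TGFB1 libraries and 965.6, 1032 and 990.1 CPM in control libraries. The groups overlapped through TGFB1 3, and PRDX1 did not pass (log2 fold change −0.10 ± 0.051 SE, edgeR adjusted p = 0.104), but passed as lower without TGFB1 3 (0.00168). It shares 24.9% of its exon bases with MMACHC, which itself stood at 24.7 ± 1.06 CPM in TGFB1 and 30.4 ± 1.67 CPM in control libraries. PRDX4, the form of the endoplasmic reticulum, did not pass either (100.2 ± 5.88 CPM in TGFB1 and 105.2 ± 2.50 CPM in control libraries, edgeR adjusted p = 0.303). Per kilobase of the longest coding transcript PRDX1 was the highest of the 40 members in both groups, at 751.9 ± 59.8 CPM per kilobase in TGFB1 and 806.9 ± 27.0 CPM per kilobase in control libraries. Next in control libraries were TXN, at 399.6 ± 12.4 CPM per kilobase, and PRDX5, at 324.2 ± 13.5, which in TGFB1 libraries stood at 269.5 ± 31.8 and 287.7 ± 10.5 CPM per kilobase.

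Of the enzymes that handle superoxide and hydrogen peroxide directly, 2 fell and 1 rose, against 23.9% and 23.4% of all genes tested. CAT, catalase, was at 43.5, 41.0 and 41.5 CPM in TGFB1 libraries and 73.9, 68.0 and 71.6 CPM in control libraries, 1.69-fold lower (edgeR adjusted p = 3.08e-11). SOD1, the copper and zinc superoxide dismutase of the cytosol, fell 1.29-fold, at 219.3, 206.2 and 223.1 CPM in TGFB1 libraries and 266.8, 290.0 and 279.9 CPM in control libraries (edgeR adjusted p = 3.44e-07). SOD2, the manganese form of mitochondria, rose 1.11-fold, at 121.6, 118.9 and 122.3 CPM in TGFB1 libraries and 111.8, 104.2 and 111.9 CPM in control libraries (edgeR adjusted p = 0.0215). The SOD2 call ended without TGFB1 1, control 2 or control 3 (edgeR adjusted p = 0.0731, 0.154 and 0.0575).

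Both methionine sulfoxide reductases, which repair oxidised methionine with electrons from thioredoxin, rose from low levels. MSRA was at 2.85, 3.61 and 3.85 CPM in TGFB1 libraries and 1.98, 1.80 and 2.87 CPM in control libraries, 1.54-fold higher (edgeR adjusted p = 0.0219), with control 3 at the level of TGFB1 1. MSRB2, a mitochondrial form, was at 5.16, 4.64 and 4.15 CPM in TGFB1 libraries and 3.52, 2.85 and 3.34 CPM in control libraries, 1.44-fold higher (edgeR adjusted p = 0.0158). Neither passed in DESeq2 (DESeq2 adjusted p = 0.0665 for MSRA and 0.0592 for MSRB2). MSRA lost its call without TGFB1 2, TGFB1 3, control 1 or control 2 (edgeR adjusted p = 0.0632 to 0.106), and MSRB2 without TGFB1 1 or control 2 (0.0795 and 0.0745).

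The members can also be divided by what is known of them beyond this list, with 23.9% lower and 23.4% higher over all genes tested. By hand 13 members were set apart as classical NRF2 targets: NQO1, HMOX1, OSGIN1, SLC7A11, GCLC, GCLM, GSR, GPX2, TXN, TXNRD1, SRXN1, PRDX1 and MAFG. Of the 12 tested 10 fell, 0 rose and 2 (SRXN1 and PRDX1) did not pass. Their median log2 fold change was −0.79. Of the 27 other members 15 fell, 6 rose and 6 did not pass, with a median of −0.18. The 6 that rose were 22.2% of the 27, near the share of all genes tested. Among 6 members taken by hand as mitochondrial forms 3 fell (TXN2, TXNRD2 and PRDX3), 2 rose (SOD2 and MSRB2) and GLRX2 did not pass. None of these 6 changed 2-fold. This split depends on the choice of genes. GLRX2, also nuclear, was counted, while PRDX5, found in mitochondria but also in peroxisomes and cytosol, fell and was not counted among the 6. The summed level of the 13 classical targets was 2028 ± 117 CPM in TGFB1 and 3188 ± 65.1 CPM in control libraries. That of the 4 glutathione peroxidases was 545.2 ± 17.6 CPM in TGFB1 and 550.8 ± 30.5 CPM in control libraries. Differences between these divisions were not tested.

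Other genes of the pathway, from lists by function that were drawn up with earlier results of these data known, gave the following counts, against 23.9% lower and 23.4% higher over all genes tested. Of 30 tested further NRF2 targets 26 fell (86.7%), 1 rose and 3 did not pass. The most abundant were the ferritin chains FTH1 (940.8 ± 34.4 CPM in TGFB1 and 1439 ± 33.3 CPM in control libraries) and FTL (827.4 ± 68.9 CPM in TGFB1 and 1378 ± 51.9 CPM in control libraries) and the pentose phosphate enzyme TKT, all lower. The largest changes were in ALDH3A1, an aldehyde dehydrogenase (0.667 ± 0.190 CPM in TGFB1 and 14.2 ± 2.70 CPM in control libraries), and AKR1C2, an aldo-keto reductase with close paralogues that make its level uncertain (9.22 ± 0.523 CPM in TGFB1 and 81.0 ± 4.32 CPM in control libraries).

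Glutathione transferases, which attach glutathione to electrophiles, numbered 17 with a test, of which 7 fell, 3 rose and 7 failed to pass. GSTP1, the most abundant, was at 568.2 ± 24.1 CPM in TGFB1 and 904.1 ± 42.4 CPM in control libraries, and GSTA4, which handles lipid peroxidation products, at 2.26 ± 0.343 CPM in TGFB1 and 15.9 ± 1.62 CPM in control libraries. GSTO1 and GSTO2, the omega-class members, rose, GSTO1 to 127.1 ± 9.52 CPM in TGFB1 libraries against 80.6 ± 2.28 CPM in control libraries. GSTM3 stood at 197.3 ± 1.08 CPM in TGFB1 and 189.8 ± 4.19 CPM in control libraries and did not pass (edgeR adjusted p = 0.344), though it did with factors set to library size (0.0430). Further peroxide, superoxide and repair enzymes were tested in 11 cases, with 6 lower, 0 higher and 5 uncalled. AIFM2, a ferroptosis suppressor that works without glutathione, fell to 91.1 ± 2.67 CPM in TGFB1 libraries against 158.6 ± 7.69 CPM in control libraries, and SESN3, a sestrin, to 6.78 ± 0.723 CPM against 19.3 ± 3.14 CPM. PXDN, a peroxidase of the matrix, did not pass, at 693.6 ± 67.9 CPM in TGFB1 and 720.1 ± 33.3 CPM in control libraries (edgeR adjusted p = 0.475), and PARK7, a redox chaperone, fell by 0.23 on the log2 scale.

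Regulators of NRF2 and NRF1 had 6 lower and 2 higher genes among 21 tested, with 13 uncalled, close to the background for falls and below it for rises. SQSTM1, the autophagy adaptor p62 that pulls KEAP1 away from NRF2 and is itself an NRF2 target, fell 2.30-fold, with 405.3 ± 14.2 CPM in TGFB1 and 933.5 ± 25.8 CPM in control libraries (edgeR adjusted p = 1.41e-18). VCP, the segregase, fell by 0.24 on the log2 scale, and CUL1 did not pass (132 ± 3.83 CPM in TGFB1 and 124.8 ± 5.86 CPM in control libraries, edgeR adjusted p = 0.212), though it was called higher with factors set to library size (0.0313).

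Genes for the supply and turnover of glutathione precursors went both ways, with 7 of 22 tested lower, 5 higher and 10 not past the test. SLC3A2, the heavy chain that carries SLC7A11 to the membrane, did not pass, at 534.5 ± 21.8 CPM in TGFB1 and 526.1 ± 20.2 CPM in control libraries (edgeR adjusted p = 0.728), and neither did MAT2A, which makes S-adenosylmethionine (edgeR adjusted p = 0.757). CTH, the cystathionine γ-lyase that makes cysteine from methionine, fell to 8.85 ± 1.08 CPM in TGFB1 libraries, against 46.3 ± 4.55 CPM in control libraries. ANPEP, an aminopeptidase of the cell surface that can split cysteinylglycine, rose to 58.0 ± 3.65 CPM in TGFB1 libraries, against 3.22 ± 0.595 CPM in control libraries. SLC25A39, a mitochondrial glutathione carrier, fell by 0.22 on the log2 scale.

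Thioredoxin-fold genes outside the members had 7 lower and 4 higher genes among 25 tested, with 14 uncalled. The protein disulfide isomerases P4HB, PDIA6 and PDIA4 fell by 0.60, 0.33 and 0.20 on the log2 scale, and TXNDC11 by 0.81. QSOX1, a sulfhydryl oxidase of the secretory pathway, rose to 233.4 ± 2.21 CPM in TGFB1 libraries, against 115.8 ± 4.92 CPM in control libraries. Selenoproteins and selenocysteine machinery outside the members had 3 lower and 4 higher genes among 18 tested, with 11 uncalled. EPT1, an ethanolamine phosphotransferase, fell by 0.22 on the log2 scale, SEPN1, a selenoprotein of the endoplasmic reticulum, and DIO2, a deiodinase, rose by 0.64 and 0.67, and SEP15 and SELT did not pass (edgeR adjusted p = 0.510 and 0.296).

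**Figure D4:**
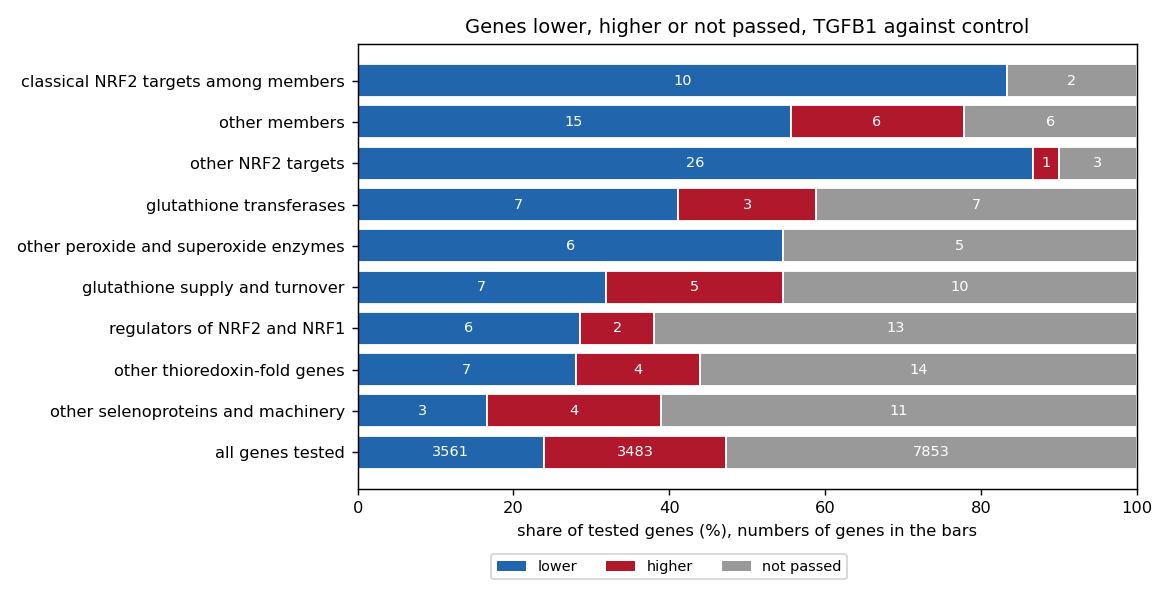
Share of tested genes (x axis, percent) that were lower, higher or not past the edgeR test in TGFB1 against control libraries. Bars are for the members taken as classical NRF2 targets, the other members, 7 further pathway lists and all genes tested, with the numbers of genes in them. NRF2 targets inside and outside the member list, both chosen by hand, show the largest lower shares, 10 of 12 and 26 of 30.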

How the data were processed

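The tools listed in the submitters' processing notes are TopHat2 2.0.11 (also as TopHat) and HTSeq, with hg19 and GRCh37 as builds and without their roles. The authors deposited whole-number counts per gene symbol for each library, without normalization. No label or header names the annotation, the strand setting or the read filters. Lines of the counter that are not genes were left out. Of the counts summed over all lines, 5.44% to 5.98% had no feature, 9.01% to 9.43% were ambiguous and 12.0% to 12.5% aligned to more than 1 place.

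The 40 members, the lists and the ratios were chosen with earlier results of these data known. From each further list the 3 genes with the highest mean CPM and the 2 called genes with the largest change are named, except 1 that is not reported here. Genes were filtered with filterByExpr (minimum count 10, minimum total 15), scaled by TMM and tested with edgeR 4.0.16 (glmQLFit with robust=TRUE, glmQLFTest) in R 4.3.3, with Benjamini-Hochberg adjustment over 14897 genes calling at 0.05, and the common biological coefficient of variation came to 0.0470. Each standard error was derived as the fold change over the root of F. The fit was tested on simulated data. No 2 libraries of a group agreed to within counting noise (chi-square per degree of freedom 1.76 to 4.34). Alternatives used DESeq2 1.42.0, limma 3.58.1 (voom), other scalings and filters, a replicate block, and leaving out each library. Transcript lengths and exon overlaps are from GENCODE 29, of another build, and so are approximate. No protein sequence was used here.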

Additional observations from a re-analysis of the deposited data

How the results depend on the processing

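Of the 31 called members 25 kept their direction and their call under all 14 alternatives, and 6 (KEAP1, PRDX2, PRDX6, SOD2, MSRA and MSRB2) lost the call under at least 1. The number of members that fell stayed between 22 and 25. DESeq2 called 6041 genes over the whole table against 7044. Scaling by library size alone shifted the median of all genes by 0.0567 on the log2 scale and split the whole table into 2879 lower and 4216 higher genes, against 3561 and 3483, and gave 2 further NRF2 targets, 5 regulators and 9 thioredoxin-fold genes as higher. Without 1 library, the selenoproteins called lower outside the members ran from 1 to 3, the 1 being without TGFB1 1. Some uncalled log2 fold changes changed sign. That of GPX3 was −0.048 in limma-voom and ran from −0.19 to 0.56 without 1 library. That of PXDN was 0.0027 with library size only and ran from −0.10 to 0.024 without 1 library, that of SLC3A2 from −0.0058 to 0.054, and that of SEP15 from −0.016 to 0.085. With the median coding transcript length, control levels per kilobase were 1253 for PRDX1, 461.8 for TXN and 485.7 for PRDX5, so PRDX5 then stood above TXN. The cause of these changes was not tested.

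The labels do not say whether equal replicate numbers mark pairs. The correlation of deviations from the group mean was 0.0351, −0.36 and −0.0971 for numbers 1, 2 and 3 over 9605 genes. For unequal numbers it ran from −0.2955 to 0.3763. With 3 libraries in a group the deviations are tied to each other, so these values cannot tell whether pairs exist. With the replicate block 6775 genes were called, and PRDX6 and SOD2 did not pass (edgeR adjusted p = 0.0602 and 0.0505). Depth limits GPX2, GPX3, SRXN1, MSRA and MSRB2, each under 6 CPM.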
